A study of Homo sapiens with 8 samples.

Results

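The genes described here are the 2 members of the JPT family, JPT1 and JPT2, and the 4 stathmins, STMN1, STMN2, STMN3 and STMN4, 6 of the 58051 genes in the count table. They were taken by name, and JPT1 was also chosen because its transcript falls in shIER5L cells, so its change is given below as a description and without a test. PC3, an established cell line from a human prostate cancer, carried either a lentiviral hairpin with no human target (shScramble) or the hairpin sh2 IER5L (shIER5L), and RNA from 4 biological replicates of each was sequenced in bulk. All 8 samples shared the cell line, the lentiviral vector and the selection of transduced cells. IER5L was silenced with 1 hairpin in 1 cell line, so an effect of the loss of IER5L and an effect of that hairpin cannot be told apart, and the methods mention several plates for each experiment without tying the replicates to them, so that p-values measure the spread between these samples.

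JPT1 and JPT2 (Jupiter microtubule associated homologs, also known as HN1 and HN1L) are small proteins named after Drosophila Jupiter, a microtubule binding protein. JPT1 has been linked to the beta-catenin destruction complex, and JPT2 binds NAADP, a messenger that releases calcium through two-pore channels. Stathmins bind free tubulin dimers and favour microtubule shortening, and phosphorylation of the protein releases the tubulin. STMN1 is the form of dividing cells and is raised in many carcinomas, whereas STMN2, STMN3 and STMN4 are best known from neurons.

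The libraries held between 21512128 and 24662190 counts on genes, and 16959 genes passed the filter on low counts. The targeted gene, IER5L, had 83, 154, 140 and 72 counts in the shScramble samples and 62, 72, 49 and 29 in the shIER5L samples. These correspond to 4.82 ± 1.51 and 2.28 ± 0.760 CPM (counts relative to the TMM-scaled size of each library, mean ± SD, n = 4), a log2 fold change of -1.08 (SE 0.248, edgeR's quasi-likelihood test, Benjamini-Hochberg adjusted p = 0.0212) that ranged from -1.24 to -0.90 when single samples were left out. The call was lost without shScramble replicate 2 or 3 (adjusted p = 0.0937 and 0.0780) or shIER5L replicate 3 (adjusted p = 0.0891). Values per sample are given throughout in the order of replicates 1 to 4, and every log2 fold change is shIER5L relative to shScramble.

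JPT1 (ENSG00000189159, hg38 chr17:75135248-75168281, minus strand) was abundant in control cells and was lower in every shIER5L sample. It had 6930, 7941, 8557 and 7079 counts in the shScramble samples and 4577, 4721, 4574 and 3953 in the shIER5L samples. After scaling these were 326.6, 335.7, 343.5 and 317.2 CPM against 201.8, 198.3, 190.3 and 180.6 CPM. The lowest shScramble sample stood well above the highest shIER5L sample, and the spread within a condition was small, with a coefficient of variation of 3.43% in shScramble and 4.91% in shIER5L. The mean went from 330.8 ± 11.3 to 192.8 ± 9.46 CPM (SD, n = 4), a log2 fold change of -0.78 (SE 0.0455), so that 58.3% of the control level was left. No interval is given for JPT1, since its fall chose it. In bulk RNA, fewer cells that carry the transcript and less of it per cell cannot be told apart.

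Among the 16959 genes tested, JPT1 had the 148th most negative log2 fold change. By the study's threshold (adjusted p under 0.05 with a log2 fold change of 0.5 or more in size), 62 genes (0.366% of those tested) were lower in shIER5L, and JPT1 had the 23rd most negative fold change of these. By CPM, which is not corrected for length, only TPM3, a tropomyosin gene, had a higher mean among them, at 750.4 CPM in shScramble and 509.5 CPM in shIER5L (log2 fold change -0.56). JPT1 was the single one of the 4 JPT and stathmin genes tested that passed this threshold, and since its fall chose it, nothing is read from that count.

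JPT2 (ENSG00000206053, chr16:1678256-1702280, plus strand), the paralog, stayed near its control level. Its counts were 3249, 3738, 3729 and 3427 in shScramble and 3185, 3411, 3440 and 3261 in shIER5L. These gave 153.1, 158.0, 149.7 and 153.6 CPM against 140.5, 143.3, 143.1 and 149.0 CPM. The conditions were separated only by the narrow gap between 149.7 and 149.0 CPM. The mean level was 153.6 ± 3.43 CPM in shScramble and 144.0 ± 3.58 CPM in shIER5L (SD, n = 4), a log2 fold change of -0.09 (SE 0.0421), which missed the threshold (edgeR's quasi-likelihood test, Benjamini-Hochberg adjusted p = 0.273). The 95% confidence interval of the difference left between 88.1% and 99.7% of the control level.

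The balance between the JPT family members differed accordingly. In counts, JPT1 exceeded JPT2 by a factor of 2.15 ± 0.0982 in the shScramble samples (range 2.07 to 2.29) and by 1.34 ± 0.0963 in the shIER5L samples (range 1.21 to 1.44). This ratio within a library does not depend on the scaling between libraries. JPT1 shares 48 of its 3414 annotated exon bases (1.41%) with SUMO2 on the same strand, a gene that had 316.3 CPM in shScramble and 314.7 CPM in shIER5L. JPT2 shares 149 of its 4768 exon bases (3.12%) with ENSG00000261732, which had at most 36 counts in any sample. The pseudogene JPT1P1 had 0 counts in all 8 samples.

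STMN1 (ENSG00000117632, chr1:25884181-25906991, minus strand) had the highest CPM of the 6 genes, without correction for length, and its level did not move beyond the spread of the samples. It had 7541, 7976, 8461 and 7702 counts in shScramble and 7911, 7873, 8329 and 7943 in shIER5L. The scaled values were 355.4, 337.2, 339.6 and 345.1 CPM against 348.9, 330.8, 346.5 and 362.8 CPM. The conditions overlapped, and both the lowest and the highest sample were shIER5L samples. The means were 344.3 ± 8.11 and 347.2 ± 13.1 CPM (SD, n = 4), with a log2 fold change of 0.01 (SE 0.0407; edgeR's quasi-likelihood test, Benjamini-Hochberg adjusted p = 0.930) and a 95% confidence interval from -0.07 to 0.10 on the log2 scale. Its processed pseudogenes carried almost nothing, with 2 to 6 counts for STMN1P1 and 0 for STMN1P2.

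JPT1 and STMN1 had nearly equal counts in control cells and unequal counts after silencing. The ratio of JPT1 to STMN1 counts was 0.961 ± 0.0492 in shScramble (range 0.919 to 1.01) and 0.556 ± 0.0442 in shIER5L (range 0.498 to 0.600). The ratio of STMN1 to JPT2 counts was 2.24 ± 0.0790 in shScramble and 2.41 ± 0.0744 in shIER5L.

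STMN3 (ENSG00000197457, chr20:63639705-63657682, minus strand) was the only stathmin with a neuronal reputation that was clearly present in these cells, and it was the most variable of the 4 genes tested. Its counts were 673, 788, 1033 and 731 in shScramble and 709, 742, 619 and 516 in shIER5L. These were 31.7, 33.3, 41.5 and 32.8 CPM against 31.3, 31.2, 25.8 and 23.6 CPM. The third shScramble sample stood above the others, the first 2 shIER5L samples lay just under the lowest control, and the other 2 were lower. The mean was 34.8 ± 4.48 CPM in shScramble and 27.9 ± 3.89 CPM in shIER5L (SD, n = 4), a log2 fold change of -0.32 (SE 0.103) that missed the threshold (edgeR's quasi-likelihood test, Benjamini-Hochberg adjusted p = 0.111). The 95% confidence interval ran from 68.9% to 93.4% of the control level, and without the third shScramble sample the log2 fold change was -0.22 (adjusted p = 0.337). When no filter on low counts was applied, STMN3 passed, with a log2 fold change of -0.33 and an adjusted p of 0.00321.

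STMN2, a neuronal growth associated stathmin, had 0 counts in all 4 shScramble samples and 2, 0, 0 and 2 in the shIER5L samples. STMN4 had 0 counts in all 8 samples. In these libraries 3 counts correspond to between 0.120 and 0.141 CPM. Neither gene was measured above that level, and no fold change is given for them. Both reads of a pair were counted, so a fragment can give 2 counts, and the true level could lie above 3 counts. Both lie on chromosome 8 (STMN2 at chr8:79610814-79666175 and STMN4 at chr8:27235323-27258420), and neither passed the filter on low counts. The stathmin domain gene STMND1 had at most 4 counts.

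Of the 6 genes, 4 passed the filter. JPT1 had no overlap between the conditions, and since its fall chose it, nothing is read from that. JPT2 and STMN3 also had no overlap and were lower in shIER5L, which was the case for 4.61% of all genes tested, while STMN1 overlapped. The gaps were narrow, 149.7 against 149.0 CPM for JPT2 and 31.7 against 31.3 CPM for STMN3. JPT2 and STMN3, which were not chosen for a fall, both missed the adjusted threshold, which 1.46% of the genes tested passed in the lower direction.

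**Figure D1:**
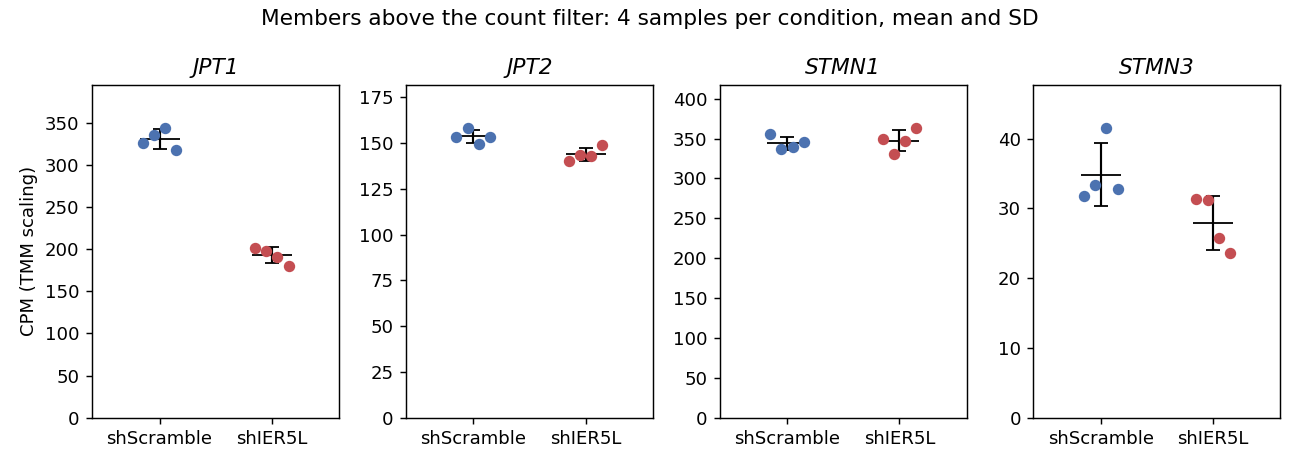
Level in CPM (vertical axes, starting at 0) of the 4 JPT and stathmin genes above the count filter in the 4 shScramble (blue) and 4 shIER5L (red) samples, with each point a sample and bars for mean and SD. JPT1 falls from 330.8 to 192.8 CPM with tight samples, JPT2 (153.6 and 144.0 CPM) and STMN1 (344.3 and 347.2 CPM) stay near their control levels, and STMN3 is low and scattered, with 1 control sample at 41.5 CPM.

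Levels can be compared between genes only per length. With the exon length in the count table, the shScramble cells held 96.9 ± 3.32 RPKM of JPT1 (CPM per kilobase of exon), 54.8 ± 1.29 of STMN1, 32.2 ± 0.719 of JPT2 and 11.5 ± 1.48 of STMN3. In shIER5L cells the RPKM levels were 56.5 ± 2.77, 55.2 ± 2.09, 30.2 ± 0.750 and 9.22 ± 1.28 in the same order of genes. In shScramble JPT1 was at the 97.3 percentile of the genes tested, STMN1 at 94.6, JPT2 at 90.0 and STMN3 at 74.3.

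JPT1 and STMN1 were apart in control cells and met in silenced cells on this scale. The log2 ratio of JPT1 to STMN1 in RPKM was 0.82 ± 0.07 in shScramble, without overlap, and 0.03 ± 0.12 in shIER5L, where the ranges overlapped. Over the 8 libraries JPT1 was above STMN1 in 7, given without a test since the fall of JPT1 enters it. This order depended on the length used, because the merged exons of STMN1 span 6288 bases and its canonical transcript 1443, against 3414 and 1434 for JPT1. Per length of the canonical transcript the control level was 230.7 ± 7.91 RPKM for JPT1 and 238.6 ± 5.62 for STMN1, and the mean log2 ratio over the 8 libraries was -0.45, with JPT1 the higher in 2 of 8.

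The lower part of the order did not depend on that choice. STMN1 was above JPT2 in 8 of 8 libraries, with a mean log2 ratio of RPKM of 0.82 ± 0.07. JPT2 was above STMN3 in 8 of 8, with 1.61 ± 0.23. No test is given, since the order was taken from the shScramble means of these same libraries. With the canonical length these log2 ratios were 2.57 and 1.55.

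**Figure D2:**
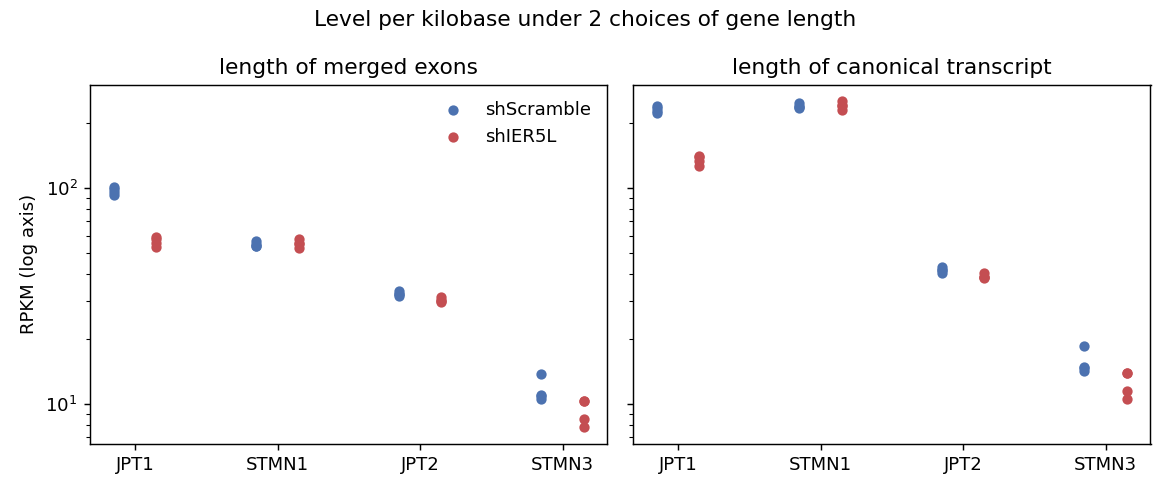
Level per kilobase (RPKM, log axis) of JPT1, STMN1, JPT2 and STMN3 in each shScramble (blue) and shIER5L (red) sample, with the merged exon length on the left and the canonical transcript length on the right. JPT1 leads the control samples at 96.9 RPKM on the left and lies at 230.7 RPKM beside STMN1 at 238.6 on the right, while JPT2 and STMN3 keep their places.

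The hairpin used for silencing is shown with 3′ UTR matches to a part of it in JPT1 and STMN3. JPT2 also holds 1 of the searched stretches, given below. The 8 bases in capitals in the hairpin contain the overlapping heptamers ACATCTC and CATCTCA, which share 6 bases, and a further heptamer, TCTCAAA, lies at its 3′ side. They were searched in the sense strand of annotated 3′ UTRs (GENCODE v44, hg38), since a guide strand from this hairpin is complementary to them. The stretch in capitals, bases 11 to 18 of the hairpin, was set by hand and not by a rule. In a guide complementary to the whole printed hairpin, TCTCAAA pairs nearest the 5′ end. ACATCTC and CATCTCA pair further from that end. Which of these heptamers matters for such a guide was not tested. Capitals in the other sequences mark the heptamer, with 10 bases on either side.
sh2 IER5L: gacgcgtccaACATCTCAaac
JPT1, chr17:75136010-75136036, minus strand: gcctgactgtACATCTCttggatttgt
STMN3, chr20:63639771-63639797, minus strand: aatatgcaccCATCTCAtccacgtagt

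In JPT1 the ACATCTC heptamer lies at chr17:75136020-75136026 in the 3′ UTR of 5 of the 8 coding transcripts. In STMN3 the CATCTCA heptamer lies at chr20:63639781-63639787 in the 3′ UTR of 2 of 5 coding transcripts. Neither heptamer occurs in the 3′ UTR of JPT2, whose longest is 3088 bases, nor in that of STMN1, with 900 bases, nor in that of STMN2. JPT2 holds 1 TCTCAAA in its longest 3′ UTR, and JPT1 and STMN3 hold 0. STMN4, which was not detected, holds 1 ACATCTC.

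Such matches are common. Of 12701 protein-coding genes tested with an annotated 3′ UTR of at least 30 bases, 11.4% hold ACATCTC in the longest one, 18.9% hold CATCTCA, 24.0% hold either and 28.4% hold TCTCAAA. Whether the hairpin acts on JPT1 or STMN3 through these stretches was not tested, and no other IER5L hairpin was analysed here.

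The genes that flank JPT1 on chromosome 17 were nearer to their control levels than JPT1. None of the 5 tested genes on either side, whose lower coordinates lie between -102.7 and 126.4 kb from that of JPT1, passed an adjusted p of 0.05 in edgeR's quasi-likelihood test, and 0 had an unadjusted p under 0.05. Their log2 fold changes ran from -0.49 to 0.02 with a median of -0.07. SUMO2, which encodes a ubiquitin-like modifier and overlaps JPT1 on its 5′ side, had a log2 fold change of -0.01 (SE 0.0524). The most negative value, -0.49 (SE 0.337), was that of ENSG00000263786, a gene at 0.715 CPM in shScramble. The 10 tested neighbours of each of JPT2, STMN1 and STMN3 also held 0 genes past the adjusted threshold, with 1, 2 and 0 at an unadjusted p under 0.05.

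**Figure D3:**
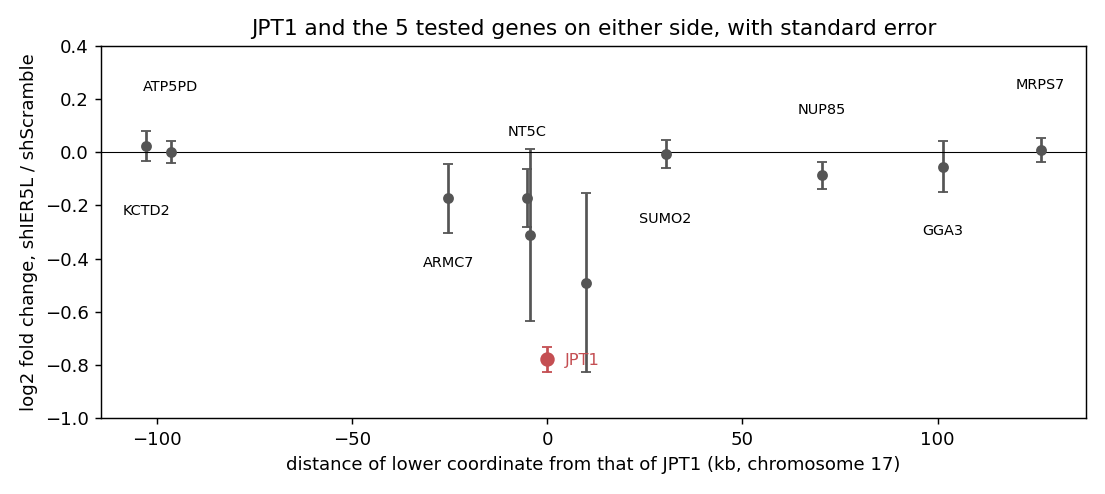
Log2 fold change in shIER5L (vertical axis, bars for the standard error) of JPT1 (red) and of the 5 tested genes on either side (grey), against the distance of their lower coordinates in kb. JPT1 lies at -0.78 and the flanking genes lie between -0.49 and 0.02, the lowest with the widest bars.

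The 5 genes whose profile over the 8 samples came closest to that of JPT1 were JOSD1, HK2, MIEF1, OIP5-AS1 and SLC25A15. Likeness was the root mean square difference of log2 CPM, each centred on its own mean, over 9097 genes with a mean of at least 10 CPM. It was 0.0839 for JOSD1, a deubiquitinase of the Josephin group, 0.0946 for HK2, a hexokinase of glycolysis, 0.104 for MIEF1, an adaptor of mitochondrial fission, 0.105 for the long noncoding RNA OIP5-AS1 and 0.108 for SLC25A15, the mitochondrial ornithine carrier, against a median of 0.411 over all candidates. Their log2 fold changes lay between -0.73 and -0.63, and they lie on other chromosomes than JPT1. The 4 that have an annotated 3′ UTR each hold ACATCTC or CATCTCA in it, against 24.0% of all genes tested with one. TCTCAAA, of which JPT1 holds 0, was not counted in these genes. The lengths of these 3′ UTRs were not compared. These genes were selected by the same samples as the fall of JPT1. They are given as a description, and nothing is read from that count.

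Genes around the known roles of the JPT proteins and stathmins were followed in 7 lists with 89 genes, of which 81 were tested. In edgeR's quasi-likelihood test 6 of them (7.41%) were lower at an adjusted p under 0.05, against 1.46% of all genes tested, and 1 was higher, against 2.46%. None of these reached a log2 fold change of 0.5 in either direction, and that of JPT1 was -0.78. The median log2 fold change of all genes tested was 0.00. The counts changed when single samples were left out. Without shScramble replicate 2, 3 or 4, 2 listed genes were lower and 0 higher, and without shIER5L replicate 3, 3 were lower and 0 higher. Without replicate 1 of either condition 3 listed genes were higher, and without shIER5L replicate 2 there were 6. Calls over all genes changed too. In the full fit 248 genes were lower and 418 higher at an adjusted p under 0.05. In both directions together, 341, 305 and 434 passed without shScramble replicate 2, 3 and 4. Without shIER5L replicate 3 there were 358, and without shIER5L replicate 2 there were 756. Without replicate 1 there were 558 (shScramble) and 520 (shIER5L).

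Tubulin genes made up most of the lower genes. TUBG1, a gamma-tubulin outside the dimers that stathmins bind, was among them. Of 15 tubulin genes tested, 4 fell and none rose by that test, with a median log2 fold change of -0.09. TUBA1A lay in the other direction, with 191.1 ± 12.1 CPM in shScramble and 216.3 ± 11.96 CPM in shIER5L (log2 fold change 0.18, edgeR adjusted p = 0.0761), and its conditions just failed to overlap. TUBA1B, an alpha-tubulin gene, went from 722.3 ± 22.1 to 602.9 ± 37.2 CPM (SD, n = 4; log2 fold change -0.26, SE 0.0458, edgeR adjusted p = 0.00391). TUBA4A, another alpha-tubulin, went from 132.2 ± 8.42 to 105.2 ± 6.44 CPM (-0.33, SE 0.0569, adjusted p = 0.00342). In 17 alternative fits neither of these calls was lost, with adjusted p up to 0.0206 and 0.0199.

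The beta-tubulin TUBB went from 181.8 ± 4.24 to 161.2 ± 5.91 CPM (log2 fold change -0.17, SE 0.0431, edgeR adjusted p = 0.0323), and the gamma-tubulin TUBG1, of the microtubule nucleating complex, from 125.7 ± 9.82 to 102.7 ± 9.34 CPM (-0.29, SE 0.0677, adjusted p = 0.0217). These calls were lost in 7 and 4 of the 17 alternatives, and the adjusted p reached 0.114 for TUBB and 0.0940 for TUBG1. TUBB lost it without shScramble replicate 2, 3 or 4, without shIER5L replicate 1, 2 or 3, and TUBG1 without shScramble replicate 2, 3 or 4 or shIER5L replicate 3. Of the 15 tubulin genes, only TUBB holds ACATCTC or CATCTCA in its longest 3′ UTR. The share over all genes tested with a 3′ UTR was 24.0%, and TCTCAAA was not counted in the tubulin genes. Alpha- and beta-tubulin genes are alike in sequence, and the assignment of reads between such copies is uncertain.

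Among 15 tested kinases known to phosphorylate stathmin, 2 fell and 1 rose, with a median log2 fold change of -0.00. MAPK3 (ERK1) went from 22.8 to 17.5 CPM (log2 fold change -0.39, edgeR adjusted p = 0.0377). CAMK2D, a calcium/calmodulin dependent kinase, went from 77.3 to 91.5 CPM (0.24, adjusted p = 0.0173). Both lost the call without shScramble replicate 2, 3 or 4. MAPK3 also lost it without shIER5L replicate 3 or 4, and CAMK2D without shIER5L replicate 3, with adjusted p up to 0.150 and 0.0702. Of these 15 kinase genes 8 hold ACATCTC or CATCTCA in the longest 3′ UTR, MAPK3 among them. Over all genes tested with a 3′ UTR the share was 24.0%. For the kinases TCTCAAA was not counted, and 3′ UTR lengths were not compared.

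No gene of the other lists passed. The 12 tested depolymerases and severing enzymes had a median log2 fold change of -0.06, with KIF24 at -0.33 (edgeR adjusted p = 0.0939), and the 24 tested stabilizers and plus end proteins had a median of 0.04, with the low neuronal gene MAP2 at 0.82 (adjusted p = 0.217). The partners of JPT2 in NAADP signalling were LSM12 at -0.13 (adjusted p = 0.498) and the channel TPCN1 at -0.12 (adjusted p = 0.774). In the beta-catenin destruction complex GSK3B was at 0.16 (adjusted p = 0.111) and CTNNB1, beta-catenin itself, at 0.10 (adjusted p = 0.149).

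Among 5 known regulators of stathmin genes, REST, the repressor of neuronal genes, was at a log2 fold change of 0.17 (edgeR adjusted p = 0.163) and E2F1, a cell cycle factor, at -0.13 (adjusted p = 0.465). The median over the 5 was -0.08.

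**Figure D4:**
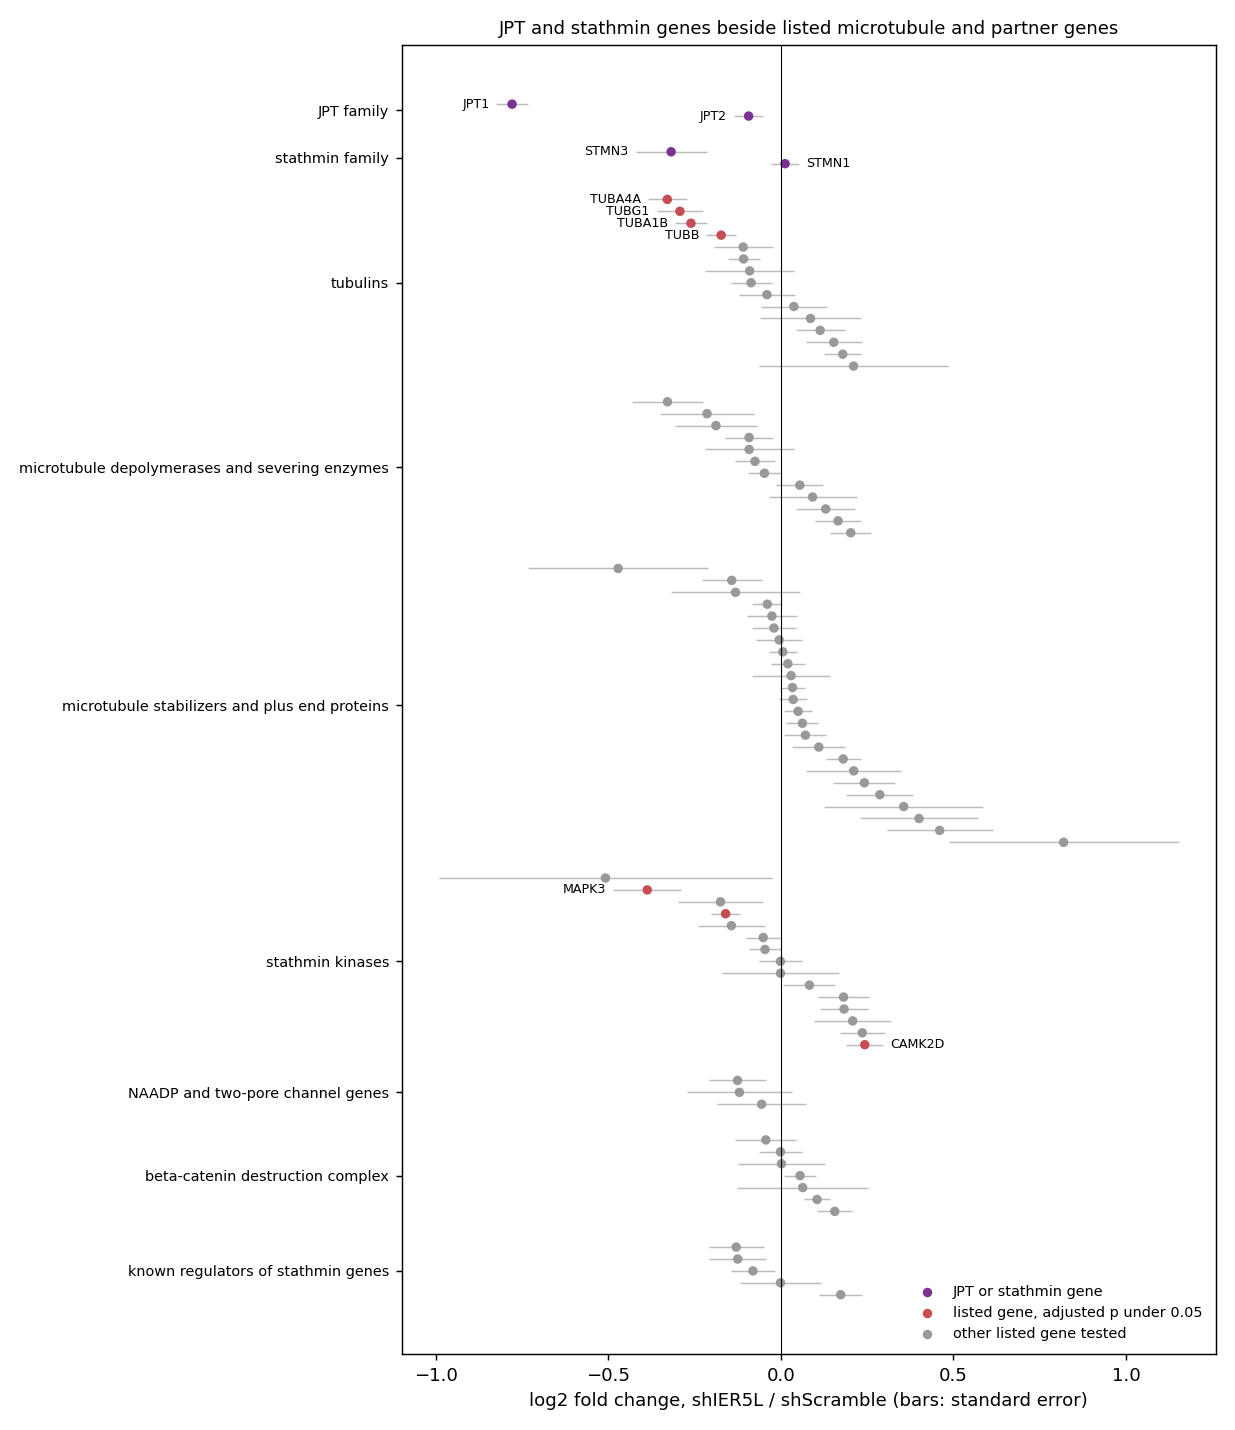
Log2 fold change in shIER5L (horizontal axis, bars for the standard error) of the 4 JPT and stathmin genes tested (purple) and of 81 listed genes, in red where the adjusted p was under 0.05. JPT1 at -0.78 lies to the left of all points, and the red points lie between -0.39 and 0.24.

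Markers of other cell types were read beside these genes, since 3 stathmins are neuronal. Of 15 neuronal and neuroendocrine markers, 5 were tested, CHGA and SNAP25 were among those at 0 in all samples, and 6 had at most 3 counts in any sample. Their summed level was 171.6 to 181.0 CPM in shScramble and 191.2 to 199.9 CPM in shIER5L, so that the sums were higher in shIER5L without overlap, while STMN3 was lower. SYT1, a synaptic vesicle calcium sensor, rose from 39.4 to 51.8 CPM (log2 fold change 0.39, edgeR adjusted p = 0.00137). What part this has in the values of STMN3 was not tested.

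All 7 epithelial markers were tested and none passed, with summed levels of 1202 to 1319 CPM in shScramble and 1176 to 1505 CPM in shIER5L. KLK3, KLK2 and FOLH1, of the prostate luminal list, were at 0, and the list's sum was 8.31 to 9.05 CPM against 8.68 to 9.53 CPM. The fibroblast, endothelial and leukocyte markers summed to 9.63 to 11.2 CPM in shScramble and 8.53 to 11.01 CPM in shIER5L, with CD3E at 0 and CDH5 and CD68 at no more than 3 counts.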

How the data were processed

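The authors deposited raw read counts per gene, as whole numbers and not normalized. The study's methods, the submitters' processing notes and the command in the table give alignment to hg38 with STAR 2.7.5c, removal of duplicates with SAMtools 1.15, and counting of primary alignments over exons with featureCounts 2.0.3, without a strand option and with both reads of a pair counted (a median of 65.6% of low counts were even). Antisense overlaps were thus not told apart. The labels name a poly(A) kit and the methods a ribosomal depletion kit.

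Computed here: 56948 of 58051 identifiers matched a GENCODE v44 symbol. Genes kept by filterByExpr were scaled by TMM, and the quasi-likelihood test of edgeR 4.0.16 (R 4.3.3) was run on all 8 samples, condition only, with adjustment over all 16959 genes. Intervals are 95%. RPKM are scaled CPM per kilobase of exon length. Orders of levels are given without a test, since they were taken from the same libraries. The fit was tested on simulated counts. Replicates of a condition differed by more than sampling noise (chi-square per degree of freedom 2.80 to 11.6), so none was counted as a copy.

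The members and lists were chosen with earlier results of these data known. Named genes were the members, IER5L, listed genes past the adjusted threshold, at most 4 per list, or the 2 with the largest change at a mean of at least 1 CPM in lists without one, the 5 genes most like JPT1, and overlapping, related and flanking genes. Some genes that this rule or the lists would name are not reported here. Alternatives were scaling by total counts, RLE or the upper quartile, 2 other filters, DESeq2 1.42.0, limma voom (limma 3.58.1), a replicate block, each sample left out, TPM and CPM without length. Counts halved and the canonical transcript length were added after the data were seen.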

Additional observations from a re-analysis of the deposited data

Results flagged for a closer look

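One value stood apart from its group. STMN3 in the third shScramble sample was at 41.5 CPM, while the other 3 shScramble samples were at 31.7, 33.3 and 32.8 CPM, a gap to the next sample that exceeded Dixon's 95% limit for 4 samples. Chance alone gives such a value in about 1 in 20 groups, and 9 groups were examined. Without this sample the log2 fold change of STMN3 was -0.22 in place of -0.32. Its description reads S_3Cont2, and those of the other shScramble samples read S_1Cont3, S_2Cont3 and S_4Cont3. What the differing ending stands for is not stated.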

How the results depend on the processing

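JPT1 had a log2 fold change between -0.80 and -0.75 in 17 alternative fits, given as a description. JPT2 ranged from -0.11 to -0.08 (adjusted p 0.157 to 0.528) and STMN1 from -0.01 to 0.03, so its sign was not fixed. STMN3 ranged from -0.38 to -0.22 when single samples were left out (adjusted p 0.0672 to 0.337). It had an adjusted p under 0.05 only without the filter on low counts (-0.33, adjusted p = 0.00321), and never reached 0.5 in size. Of the listed genes, 3 in place of 1 were higher without the filter and 3 with DESeq2, and with single samples left out 2 to 5 were lower and 0 to 6 higher. The ratio of JPT1 to STMN1 reversed to -0.45 in CPM without length and to -0.45 with the canonical transcript length, and ran from 0.36 to 0.51 with single samples left out. The cause of these changes was not tested, apart from the lengths given above. Over all genes, the count past the study's threshold was 134, between 86 (without the third shScramble sample) and 177 (no filter). Other scalings moved the median log2 fold change of all genes by at most 0.02.

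The samples carry shared replicate numbers, but not all same-numbered samples deviated together (correlations of deviations -0.36, 0.39, -0.36 and 0.49 over 9098 genes, 2 pairs negative), so the numbers were not taken to pair them. With a replicate block JPT1 was at -0.78 and STMN3 at -0.32 (adjusted p = 0.0791). TUBB then missed an adjusted p of 0.05 (adjusted p = 0.0515), and 137 genes over all passed the study's threshold. Depth limits STMN2 and STMN4, which had at most 2 counts in any library, where 3 counts correspond to up to 0.141 CPM.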
